A study of Sminthopsis crassicaudata with 9 samples.

Results

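The balance of 2 histone marks, H3K27ac and H3K4me3, was measured at the starts of all 21703 genes of the count table in the face of the newborn fat-tailed dunnart (Sminthopsis crassicaudata), a small carnivorous marsupial. Every gene entered. The start of transcription (TSS) was set at the gene model's outermost exon boundary on the coding strand, and the value of a gene for a mark in a library is the fold enrichment over input of the strongest peak with q under 0.05 that comes within 1 kb of the TSS, or 0 where there is none. Of the 21703 TSSs, 14448 (66.6%) had a peak of both marks in both replicates, and the ratio of the marks was taken at these.

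The tissue was the mandibular, maxillary and fronto-nasal prominences of pouch young less than 24 hours old, with no treatment, pooled by the labels over 26 heads for replicate 1 and 27 for replicate 2, which are called pool 1 and pool 2 here. The study's text gives a total of young that differs from the sum of the labels. Each pool gave 1 H3K4me3 library, 1 H3K27ac library and 1 input, so the ratio was taken within a pool and the pools are the replicates. The main test did not pair the marks by pool, and a fit that does is given beside it. RNA came from 3 libraries of the same tissue and age, each of 2 young, with 16096971 to 17419099 counts over genes. The peak lists carry no read totals, so the depth behind a peak is not known from them.

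H3K4me3 is laid down around active and poised gene starts by methyltransferase complexes, many of which are drawn to CpG-rich DNA. H3K27ac is written by the acetyltransferases EP300 and CREBBP at active promoters and at active enhancers, and it is absent from chromatin held by Polycomb, which methylates the same lysine. A gene start with strong H3K4me3 and little H3K27ac is the textbook picture of a poised developmental gene, and a site with strong H3K27ac and little H3K4me3 is that of an enhancer.

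Most gene starts carried the marks together or not at all. No peak of either mark was found at 4919 TSSs (22.7%), H3K27ac in both pools with no H3K4me3 in either at 480 (2.2%), and H3K4me3 in both pools with no H3K27ac in either at 95 (0.438%). At the remaining 1761 at least 1 mark was seen in 1 pool only. Genes with a symbol, as opposed to a LOC identifier, made up 80.8% of the TSSs with both marks, 45.0% of those with H3K27ac alone and 31.2% of those with neither. The median transcript level, in TPM (counts scaled by exon length and library total), was 12.2 at TSSs with both marks, 0.0586 with H3K27ac alone, and 0 with H3K4me3 alone or with neither.

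At the 14448 TSSs with both marks, the median fold enrichment of H3K4me3 was 39.8 in pool 1 and 47.0 in pool 2, and that of H3K27ac was 27.1 and 23.2. H3K4me3 was spread more widely, with a SD of log2 fold enrichment over TSSs of 1.39 and 1.43, against 1.22 and 1.12 for H3K27ac. Across TSSs, log2 fold enrichment correlated between the pools with a Pearson r of 0.953 for H3K4me3 and 0.932 for H3K27ac, and between the marks with 0.833 in pool 1 and 0.827 in pool 2. These are descriptions over 14448 TSSs that share libraries and inputs, and neighbouring TSSs can share a peak. The pools differed by over 4-fold, after scaling, at 60 TSSs for H3K4me3 and at 38 for H3K27ac.

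**Figure D1:**
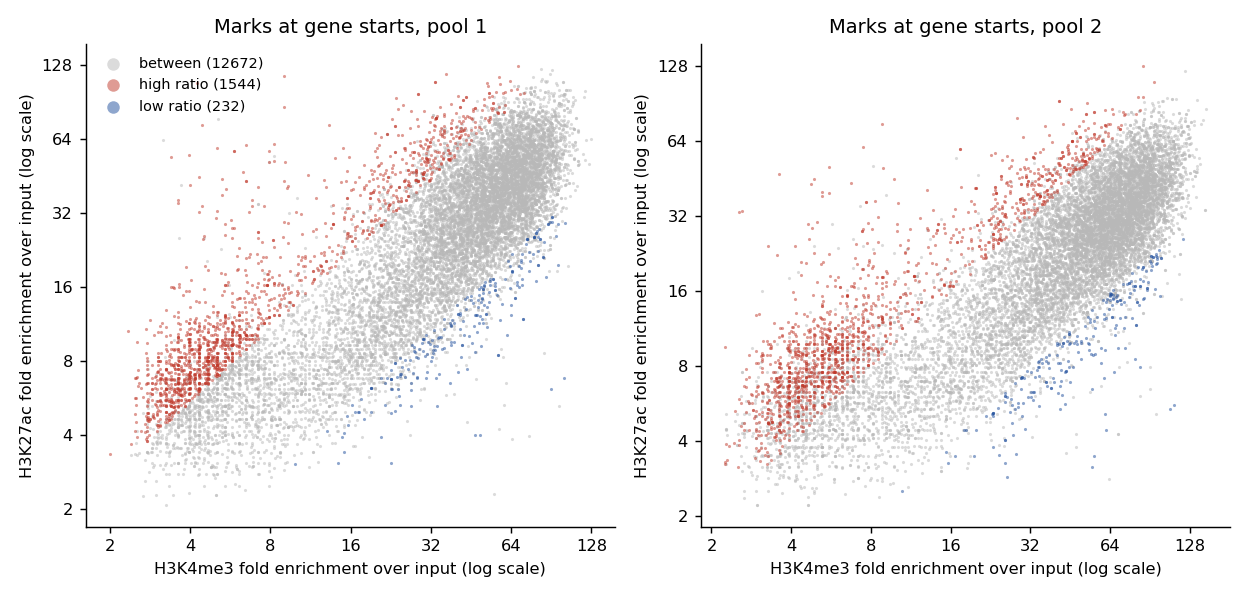
Fold enrichment over input of H3K4me3 (x axis) and H3K27ac (y axis) at the 14448 gene starts with both marks, in pool 1 (left) and pool 2 (right), both axes on a log scale. Points are TSSs, red where the H3K27ac ratio was high in both pools (1544), blue where it was low in both (232) and grey between, and the red points gather where H3K4me3 is weak while the blue ones lie where it is strong.

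Because the 2 antibodies have no common unit, each library was divided by its own median over the 14448 TSSs before the ratio was taken. The relative log2 ratio used from here on is the log2 of scaled H3K27ac over scaled H3K4me3. It is 0 where a TSS stands the same number of times above the library median for both marks. It is 1 where H3K27ac is 2 times as strong relative to H3K4me3 as in the library medians, and -1 for the opposite. Without the scaling the median log2 ratio was -0.66, so the sign of a ratio holds relative to the library medians and says nothing of absolute amounts. The median relative log2 ratio over the 14448 TSSs was 0.13, slightly above 0.

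The ratio largely repeated between the pools, less so past the low limit than past the high limit. It had the same sign in both pools at 11974 TSSs (82.9%), and its Pearson r between pools was 0.797. Of 2064 TSSs with a ratio of at least 1 in pool 1, 1544 were at least 1 in pool 2 as well, where the 2064 had a median of 1.39. Of 632 with a ratio of at most -1 in pool 1, 232 were past that limit in pool 2, with a median of -0.85. Chosen in pool 2 and read in pool 1, 2482 high ratios had a median of 1.16 with 62.2% past the limit, and 489 low ones a median of -0.97 with 47.4%. The 1544 TSSs past the limit in both pools, 10.7% of those measured, are called high-ratio genes, and the 232 below it in both, 1.61%, low-ratio genes. The limits were set on the values themselves, so the classes carry no test.

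**Figure D2:**
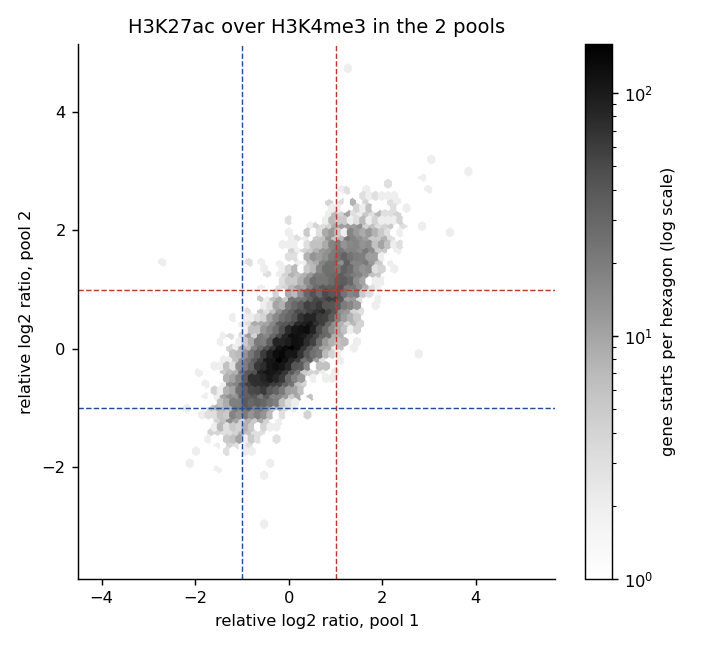
Relative log2 ratio of H3K27ac to H3K4me3 at 14448 gene starts in pool 1 (x axis) and pool 2 (y axis), with darker hexagons holding more TSSs on a log scale and dashed lines at the class limits of 1 (red) and -1 (blue). The cloud runs along the diagonal (Pearson r = 0.797), with 1544 TSSs in the upper right corner and 232 in the lower left.

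Between the marks, limma's moderated test on the 4 libraries called 2941 TSSs with relatively more H3K27ac (20.4% of those tested) and 969 with relatively less (6.71%) at a Benjamini-Hochberg adjusted p under 0.05. With the pool as a block, in keeping with the shared pools, the counts were 4309 (29.8%) and 2266 (15.7%), and 2928 of the 2941 and all 969 were among them. The test rests on 2 libraries per mark, and without H3K27ac replicate 2 it called 43 higher and 7 lower. Without H3K27ac replicate 1 it called 976 and 193, without H3K4me3 replicate 1 2113 and 263, and without H3K4me3 replicate 2 1674 and 279. The split of calls also follows the scaling: 75.2% were higher here, 54.0% after quantile normalisation, which removes the difference in spread between the marks, and 11.4% with no scaling.

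Most high ratios lay at weak H3K4me3, which the way the ratio is built favours. H3K4me3 is its denominator, and a TSS needed an H3K27ac peak, the weakest of which were 2.07 and 2.22-fold in pools 1 and 2, so that low ratios could not arise at the weakest H3K4me3. The values by strength are therefore a description. TSSs were grouped by H3K4me3 in pool 2 and the ratio was read in pool 1. The 1101 TSSs with H3K4me3 under 5-fold had a median relative log2 ratio of 1.04, and the 1378 between 5 and 10-fold had 0.87. From 10-fold upward the median stayed between -0.09 and 0.02. The grouping in pool 1 read in pool 2 gave 1.44, 1.12, and then 0.19 falling to -0.13. Above 10-fold the median fell with stronger H3K4me3 in both groupings, and more so in the grouping by pool 1.

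High-ratio genes ran from weakly to strongly marked starts. The class took in 42.1% of TSSs with a mean H3K4me3 under 10-fold, 10.3% (123) of those from 10 to 20-fold and 3.32% of those at 20-fold or more. A mean H3K4me3 under 10-fold was found at 1065 of the 1544, with median fold enrichments of H3K4me3 of 4.31 and 5.02 and of H3K27ac of 8.31 and 8.22 in pools 1 and 2. The 1065 had a median of 0.724 TPM, and a stronger H3K4me3 peak, at least 2-fold, inside the gene at 12.7% of them in pool 1. At 356 high-ratio genes H3K4me3 was 20-fold or more, with medians of 30.9 and 36.3 for H3K4me3, of 56.0 and 47.0 for H3K27ac, and of 14.1 TPM. Quantile normalisation left 271 of the 1065 past the class limit and 296 of the 356.

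The low-ratio genes lay at strong H3K4me3. The floor on H3K27ac keeps the weakest starts out of the class, and its part in this was not tested. Mean H3K4me3 was 20-fold or more at 223 of 232, and at 10722 of all 14448 TSSs. Its medians over the class were 44.2 and 52.9, near those of the TSSs between the limits (43.6 and 51.6). H3K27ac was 11.1 and 9.77, against 29.1 and 24.7 between the limits. Under quantile normalisation 225 of the 232 stayed past the limit.

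Where the peak lay also differed. The summit of the strongest H3K27ac peak was over 1 kb from the TSS, so that only the flank of the peak reached it, at 28.8% and 27.7% of high-ratio genes in pools 1 and 2, at 14.2% and 14.7% of those between the limits and at 12.1% and 11.2% of low-ratio genes. For H3K4me3 the shares were 20.5% and 21.5%, 14.4% and 14.3%, and 15.1% and 15.5%. Counting a peak only where its summit lies within 1 kb, a setting added after these values were seen, left 11183 TSSs with 974 high-ratio and 183 low-ratio genes, of which 943 and 183 were in the classes above. All 12 genes with a symbol of highest ratio among those called had an H3K27ac summit over 1 kb away in at least 1 pool, so they are read with that in mind.

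DMRTC2, a gene of the doublesex family, had the highest ratio of all genes with a symbol. Its H3K4me3 was 3.95 and 4.89-fold and its H3K27ac 55.1 and 45.2-fold, but the H3K27ac summit lay 9191 and 9203 bp away within a peak of 14180 bp in pool 1. SPI1, which encodes the myeloid factor PU.1, had H3K4me3 of 3.59 and 5.22 and H3K27ac of 36.0 and 38.6 from a summit over 15 kb away (15129 and 15520 bp). GATA1, the master factor of red cells, had 5.03 and 5.02 against 32.6 and 30.3, at 5516 and 5556 bp. At MYRF, TSGA10IP, MADCAM1, TYMP, OMD, GPR84 and FAM83C the H3K27ac summit was likewise 3551 to 12021 bp away in both pools. With a window of 3 kb, GATA1 (0.57), BATF2 (0.56), MADCAM1 (2.13) and TYMP (2.22) were no longer called. The tenth, SNRNP35, a component of the minor spliceosome, had H3K4me3 of 4.23 in pool 1 and 56.0 in pool 2, with the H3K4me3 summit 264 bp away in pool 1 and 3478 bp in pool 2, and it was not called after quantile normalisation. BATF2, the last of the 12, took its H3K27ac from a peak of 11696 bp in pool 1 that also covers the start of ARL2.

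Among high-ratio genes whose 4 summits all lay within 1 kb, a list drawn up after the values were seen, the leading member was ALKBH6, a member of the AlkB dioxygenase family. Its H3K4me3 was 8.27 and 8.87-fold and its H3K27ac 52.0 and 49.9-fold. Its relative log2 ratio was 3.36 ± 0.22 (limma's moderated SE, 2 pools per mark, as for all ratios below). Its transcript level was 86.0 ± 34.1 TPM (SD, n = 3). CAB39, a scaffold protein of the LKB1 kinase, had H3K4me3 of 3.26 and 5.87 and H3K27ac of 12.9 and 16.8. It gave 86.0 ± 11.3 TPM (SD, n = 3) and a relative log2 ratio of 2.53 ± 0.34. LGI4, a secreted protein of the Schwann cell lineage, had 5.73 and 6.01 against 25.2 and 18.2, and FCGR2B, an antibody receptor of white blood cells, had 6.64 and 7.84 against 21.1 and 20.9. At each of these the H3K27ac values of both pools lay above both H3K4me3 values, the reverse of the median TSS.

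KLF7, ZNF532 and OXSM, of the same list, had stronger H3K4me3 than these. KLF7, a Krüppel-like transcription factor whose TSS is at position 26097932 on the plus strand of scaffold00001_pilon_pilon, had H3K4me3 of 28.6 and 41.2 and H3K27ac of 97.5 and 93.1. Both peaks are shared with LOC116422237, which starts 79 bp away on the other strand. The relative log2 ratio was 2.26 ± 0.18, with 7.32 ± 1.68 TPM (SD, n = 3). ZNF532, a zinc finger gene, had 19.8 and 28.5 against 67.6 and 79.5. OXSM, a mitochondrial fatty acid synthase, had 24.0 and 25.0 against 84.5 and 54.0. Transcripts of these genes were not abundant, at 15.4 ± 4.74 TPM for ZNF532 and 8.30 ± 0.318 for OXSM (SD, n = 3). Their limma adjusted p ran from 0.00395 for KLF7 to 0.00675 for OXSM, and that of ALKBH6 was 0.00345.

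At the low end, 6 protein-coding genes of the lowest 12 had strong H3K4me3 and hardly any transcript. NWD2 was the lowest of the called genes with a symbol, with H3K4me3 of 33.8 and 41.4-fold, H3K27ac of 5.23 and 5.37-fold and 0.0780 ± 0.0577 TPM (SD, n = 3). NEK10, a kinase of ciliated cells, had 40.4 and 66.6 against 7.22 and 7.59. Its relative log2 ratio was -2.02 ± 0.26, with a limma adjusted p of 0.00967 and all summits within 169 bp of the TSS. CBLN1, an organiser of cerebellar synapses, had 24.4 and 26.2 against 5.74 and 2.88. PRKCB, a protein kinase C, had 30.9 and 54.8 against 7.22 and 6.46, and MARCHF11 and SLC4A8, a ubiquitin ligase and a bicarbonate transporter, had H3K27ac of 3.57 to 6.89 beside H3K4me3 of 28.3 to 42.4. These genes gave mean levels of 0.0780 to 0.928 TPM.

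The other protein-coding genes of the lowest 12 were transcribed. ORC1, a subunit of the origin recognition complex, and PRPF38A, a splicing factor, start 4 bp apart and share a peak of each mark, with H3K4me3 of 70.8 and 80.5 and H3K27ac of 11.9 and 11.7. They gave 19.9 ± 2.92 and 68.7 ± 9.09 TPM (SD, n = 3). POP5, a subunit of RNase P, had 61.8 and 73.1 against 10.2 and 9.50, yet all its summits were over 2 kb away and at a window of 500 bp its ratio was 0.08. PRKAG2, DIPK1B and the tRNA gene TRNAL-CAG-5 complete the 12, each with H3K4me3 summits over 1 kb away, and the tRNA gene was listed at 0 TPM in all RNA libraries. The limma adjusted p of these 12 genes ran from 0.00675 (POP5) to 0.0146 (SLC4A8).

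Near the limits the classes run into each other. GPER1 and SLC66A1 stood just inside the high class, at 1.61 and 1.00 and at 1.00 and 1.25 in pools 1 and 2. ZBTB5 (1.10 and 1.00) was just outside. ACAD9 (-1.0 and -1.12) and POU3F2 (-1.0 and -1.06) were just inside the low class, while FEZ1 (-1.40 and -1.0) and SMYD5 (-1.0 and -1.29) were just outside. Equal printed values differ in later digits.

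Muscle contraction genes mostly had a high ratio. Of 36 annotated genes of the sarcomere and of excitation, 23 had both marks in both pools, 2 H3K27ac alone, 6 no mark and 5 another combination. The median relative log2 ratio of the 23 was 1.16 (1.13 and 1.20 in pools 1 and 2), against 0.13 over all 14448 TSSs. High-ratio genes were 14 of 23, where 10.7% of all were, and 14 were called higher and 0 lower. With the pool as a block the counts were 18 and 2, the 2 being MYLPF and ACTA1. Over all TSSs 20.4% were called higher and 6.71% lower, and 29.8% and 15.7% with the block. The median was 0.67 after quantile normalisation and 1.22 over the 15 TSSs whose summits lay within 1 kb.

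Some channel, receptor and Z-disc genes of muscle shared this pattern. CHRNA1, the muscle acetylcholine receptor subunit, had H3K4me3 of 4.26 and 3.84-fold and H3K27ac of 7.99 and 8.06-fold, with summits 111 to 137 bp from the TSS. Its relative log2 ratio was 1.77 ± 0.28 (limma adjusted p = 0.0124) and its transcript 91.1 ± 10.1 TPM (SD, n = 3). CSRP3, a Z-disc protein, had 4.26 and 3.84 against 6.0 and 5.04, with 537 ± 116 TPM. LDB3, also of the Z-disc, had 5.25 and 9.46 against 9.03 and 12.6, with 344 ± 139.7 TPM. CACNA1S, the calcium channel of excitation, had 5.27 and 9.49 against 9.30 and 11.8. In each of these genes the higher value of a pool was that of H3K27ac. MYOZ1, the highest of the list at 2.03 ± 0.32, and RYR1, the calcium release channel, had H3K27ac summits over 2 kb away.

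The most abundant muscle transcripts did not all follow. TNNT3 and TNNI2, fast troponins at 6074 ± 1026 and 4354 ± 802 TPM (SD, n = 3), were high-ratio genes (1.16 ± 0.25 and 1.15 ± 0.25), though their H3K27ac summits were over 1 kb away. MYLPF, the fast myosin light chain, gave 5311 ± 841 TPM with H3K4me3 of 74.6 and 93.0, H3K27ac of 36.2 and 33.5 and a ratio of -0.47 ± 0.17. Its TSS shares both peaks with TBC1D10B. ACTA1, skeletal actin, gave 3910.2 ± 629 TPM from a start with H3K4me3 of 15.8 and 20.2 and H3K27ac of only 4.55 and 7.56, the lowest ratio of the list at -0.82 ± 0.35 (limma adjusted p = 0.124). DES, CKM, TPM1 and TPM2 lay between 0.10 and 0.60 and were not called, TPM2 being called with the block (adjusted p = 0.0465 by limma).

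Weak H3K4me3 beside abundant transcript was frequent among muscle genes, though not only there. Of the 1357 TSSs with both marks and over 100 TPM, 100 (7.37%) had a mean H3K4me3 under 10-fold, and 9 of the 17 such muscle genes did. So did 5 of 17 such epithelial genes and 2 of 2 such erythroid genes. In every other list at most 1 such gene did. Among all TSSs under 10-fold 42.1% were high-ratio genes, and 13 of the 15 muscle TSSs under 10-fold were. Muscle is a part of the dissected face, and in bulk chromatin fewer cells of a type and less of a mark per cell cannot be told apart. The part of either in the ratio was not tested. The myogenic regulators were mixed, with a median of 0.38 over 10 TSSs, from MYOG at 1.22 ± 0.26 to MSC at -1.0 ± 0.46. Of the 10, 2 were called higher, near the 20.4% of all TSSs. MYOG was not called after quantile normalisation (0.84).

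**Figure D3:**
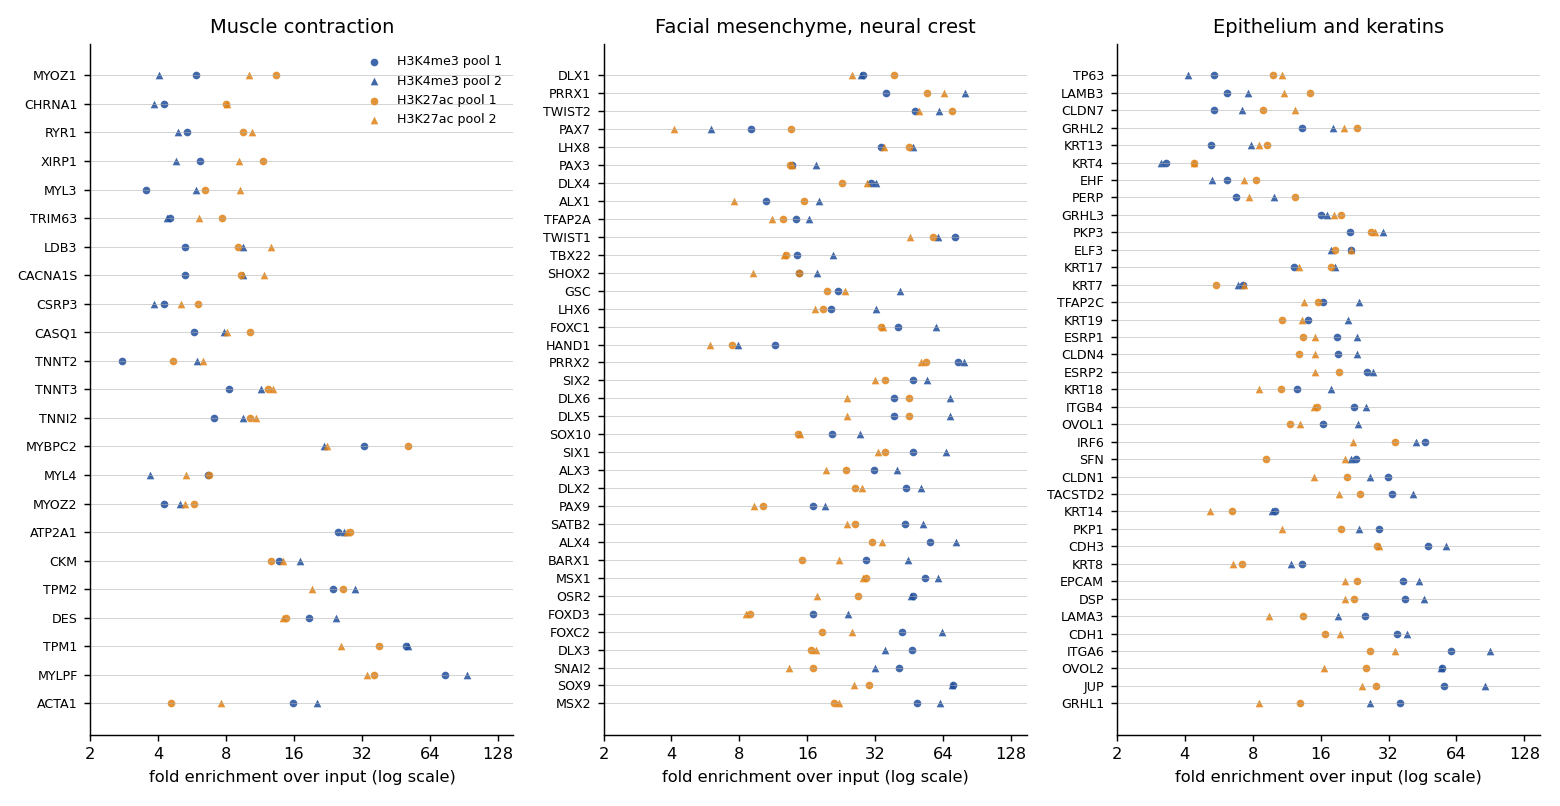
Fold enrichment over input (x axis, log scale) at the starts of the 23 muscle contraction genes, the 36 facial mesenchyme and neural crest factors and the 37 epithelial genes with both marks, ordered by relative log2 ratio, with H3K4me3 in blue, H3K27ac in orange, pool 1 as circles and pool 2 as triangles. At CHRNA1 and most muscle genes the orange points lie to the right of the blue ones. At most mesenchyme factors, of which MSX2 has the lowest ratio, they lie to the left. The values are unscaled, and H3K27ac is below H3K4me3 at the median TSS as well.

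The transcription factors that pattern the facial mesenchyme had balanced marks. Of 38 annotated, 36 had both marks in both pools, with a median ratio of 0.17 and a range of -0.56 to 0.94. All summits lay within 1 kb at 18 of the 36, against 75.8% of all TSSs. Counting only peaks with such summits, the median was 0.09 over 19 TSSs. None of the 36 was in either class, 3 were called higher (DLX1, TWIST2 and LHX8), where 20.4% of all TSSs were, and 0 lower, where 6.71% were. With the block 6 were called higher and 2 lower (29.8% and 15.7% of all TSSs), and the 2 were MSX2 and SOX9. DLX1, of the pharyngeal arches, had H3K4me3 of 28.3 and 27.7 and H3K27ac of 38.6 and 25.2 (0.94 ± 0.24, adjusted p = 0.0336 by limma). TWIST2, a mesenchymal factor, had 48.2 and 61.0 against 69.9 and 50.2 (0.91 ± 0.17). MSX2, a factor of skull and tooth growth, had 49.1 and 61.7 against 21.1 and 22.1 (-0.56 ± 0.22).

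Well-known members of this list lay near the median TSS. TWIST1, at 287 ± 70.8 TPM (SD, n = 3), had H3K4me3 of 71.9 and 60.9 and H3K27ac of 57.6 and 45.6, and MSX1, at 100.2 ± 14.1 TPM, had 53.2 and 60.9 against 29.2 and 28.2. The pools went apart at ALX1, whose ratio was 1.10 in pool 1 and -0.24 in pool 2, with the H3K27ac summit 2518 bp away in pool 1 only. DLX5 and DLX6 lie in 1 H3K4me3 peak of 36822 bp and 1 H3K27ac peak of 36778 bp in pool 1 and so have 1 value.

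Signals of the face were also balanced, with a median of 0.18 over 31 TSSs. All summits lay within 1 kb at 16 of the 31, against 75.8% of all TSSs. Of the 31, 4 were called higher and 0 lower (6 and 4 with the block). Over all TSSs the shares were 20.4% and 6.71%, and 29.8% and 15.7% with the block. TGFB3, a growth factor needed for palate fusion, was the only high-ratio gene among them, with H3K4me3 of 12.7 and 19.2 and H3K27ac of 43.6 and 25.4 (1.88 ± 0.28, limma adjusted p = 0.0113). GLI1, TGFBR2 and JAG1 were the other calls, at 0.82 ± 0.23, 0.79 ± 0.17 and 0.62 ± 0.16. SHH, the signal of facial epithelium, had 18.7 and 12.9 against 3.24 and 4.74, and its ratio of -1.98 and -0.43 differed between the pools (-1.20 ± 0.38, adjusted p = 0.0587 by limma, and 0.0347 with the block). Its H3K4me3 summits were over 2 kb away, and its ratio was -0.24 (adjusted p = 0.577 by limma) at a window of 3 kb and -1.77 (0.0233) after quantile normalisation.

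Epithelial genes were near the background in their counts. Of 40 annotated, 37 had both marks, with a median of 0.14, 5 high-ratio and 0 low-ratio genes, 10 called higher and 0 lower (12 and 4 with the block). Over all TSSs 10.7% were high-ratio and 1.61% low-ratio genes, and the median was 0.13. Called higher were 20.4% and lower 6.71% of all TSSs, and 29.8% and 15.7% with the block. LAMB3, a laminin of the skin's basement membrane, had H3K4me3 of 6.13 and 7.61 and H3K27ac of 14.4 and 10.99 with all summits within 216 bp (1.67 ± 0.24, limma adjusted p = 0.011). KRT13, a keratin of the oral lining, gave 2594 ± 822 TPM (SD, n = 3) with 5.25 and 7.84 against 9.28 and 8.52. TP63, the master factor of stratified epithelium, was the highest at 1.91 ± 0.31, with every summit over 1 kb from the annotated start. KRT14 and KRT8 lay at 0.01 and -0.09 with weak values of both marks, H3K4me3 of 10.1 and 9.79 and H3K27ac of 6.46 and 5.17 for KRT14, although KRT14 gave 4392 ± 1438 TPM. JUP and GRHL1, at -0.63 and -0.77, were the lowest and were called only with the block (adjusted p = 0.0173 and 0.0175 by limma).

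The blood lists also had high medians, on few genes. Over all TSSs 10.7% were high-ratio genes and 1.61% low-ratio genes. Of 9 erythroid TSSs 6 were high-ratio genes and 1 was low, with a median of 1.65, and of 12 white blood cell TSSs 6 were high, with a median of 1.19. These medians were 0.87 and 0.73 when summits had to lie within 1 kb, where 2 of 6 and 2 of 8 TSSs were high-ratio genes, and 0.76 and 0.44 after quantile normalisation. The low member was ANK1, the ankyrin of red cells, with H3K4me3 of 21.5 and 16.6 and H3K27ac of 5.26 and 3.49 (-1.36 ± 0.31). Most of these TSSs had weak H3K4me3, under 10-fold at 7 of 9 and 8 of 12.

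Lists of neurons, channels, receptors and factors of other organs had medians below 0. Factors of other organs and the brain had a median of -0.46 over 45 TSSs, with 4 called higher and 7 lower, neurons -0.28 over 18 with 1 and 3, potassium and voltage-gated channels -0.34 over 79 with 5 and 10, and neurotransmitter receptors -0.30 over 54 with 6 and 3. With the block the higher calls were 5, 1, 11 and 6 in that order, and the lower calls 13, 3, 24 and 10. Over all TSSs 20.4% were called higher and 6.71% lower, and 29.8% and 15.7% with the block. High-ratio genes numbered 3, 0, 2 and 5 in the same order, and low-ratio genes 1, 3, 0 and 0. For these classes the shares over all TSSs were 10.7% and 1.61%. Among the receptors more were called higher than lower in the main test, and fewer with the block. OLIG2, a factor of the spinal cord, had H3K4me3 of 15.1 and 19.9 and H3K27ac of 3.39 and 4.42 (-1.38 ± 0.29, limma adjusted p = 0.0207) and 0.457 ± 0.153 TPM (SD, n = 3). POU4F1, of sensory neurons, had 24.1 and 34.1 against 6.16 and 7.73 (-1.27 ± 0.28). CACNA1B and CHRNA7, a neuronal calcium channel and an acetylcholine receptor subunit, were the lowest of their lists at -1.21 ± 0.26 and -1.07 ± 0.23. CHRNA7 and the muscle subunit CHRNA1 of the same receptor family lay on opposite sides of 0. The neuron median was -0.08 at a window of 500 bp and 0.13 at 3 kb, so its side depends on the window.

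HOX genes, which are silent in most of the face, did not lean to H3K27ac despite weak H3K4me3. Groups 1 to 7 had a median of 0.18 over 13 TSSs and groups 8 to 13 of -0.28 over 15. H3K4me3 was under 10-fold at 9 and 7 of these, of which 0 were high-ratio genes, against 42.1% of all TSSs under 10-fold. Their medians were 8.27 and 9.46 for H3K4me3 and 5.14 and 5.28 for H3K27ac in groups 1 to 7, so both marks were weak. Quantile normalisation gave medians of -0.54 and -0.91.

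Most housekeeping lists were near the median TSS, while proteasome subunits lay below it and splicing factors above it. Cytosolic ribosomal proteins had a median of -0.04 over 67 TSSs, from RPL8 at -0.81 ± 0.27 to RPL7L1 at 0.87 ± 0.19, with 5 called higher, 0 lower (9 and 10 with the block) and none in either class. Oxidative phosphorylation had -0.08 over 50 and proteasome subunits -0.25 over 32. Of the 32 proteasome TSSs, 3 were called higher and 4 lower. With the block 4 and 10 were, where 29.8% and 15.7% of all TSSs were. Splicing factors had 0.32 over 42 with 13 called higher and 3 lower, where 20.4% and 6.71% of all TSSs were. HNRNPK, an abundant RNA-binding protein at 510.1 ± 59.4 TPM (SD, n = 3), was the highest of them, with H3K4me3 of 56.8 and 70.1 and H3K27ac of 81.8 and 71.6 (1.06 ± 0.13). RMI1, which starts nearby, shares both peaks. Immediate early genes had 0.33 over 23, with 7 called higher and 0 lower. All summits lay within 1 kb at only 10 of these 23. NR4A1, the highest, had H3K27ac of 115 in pool 1 and 20.4 in pool 2, from summits 3400 and 77 bp away.

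**Figure D4:**
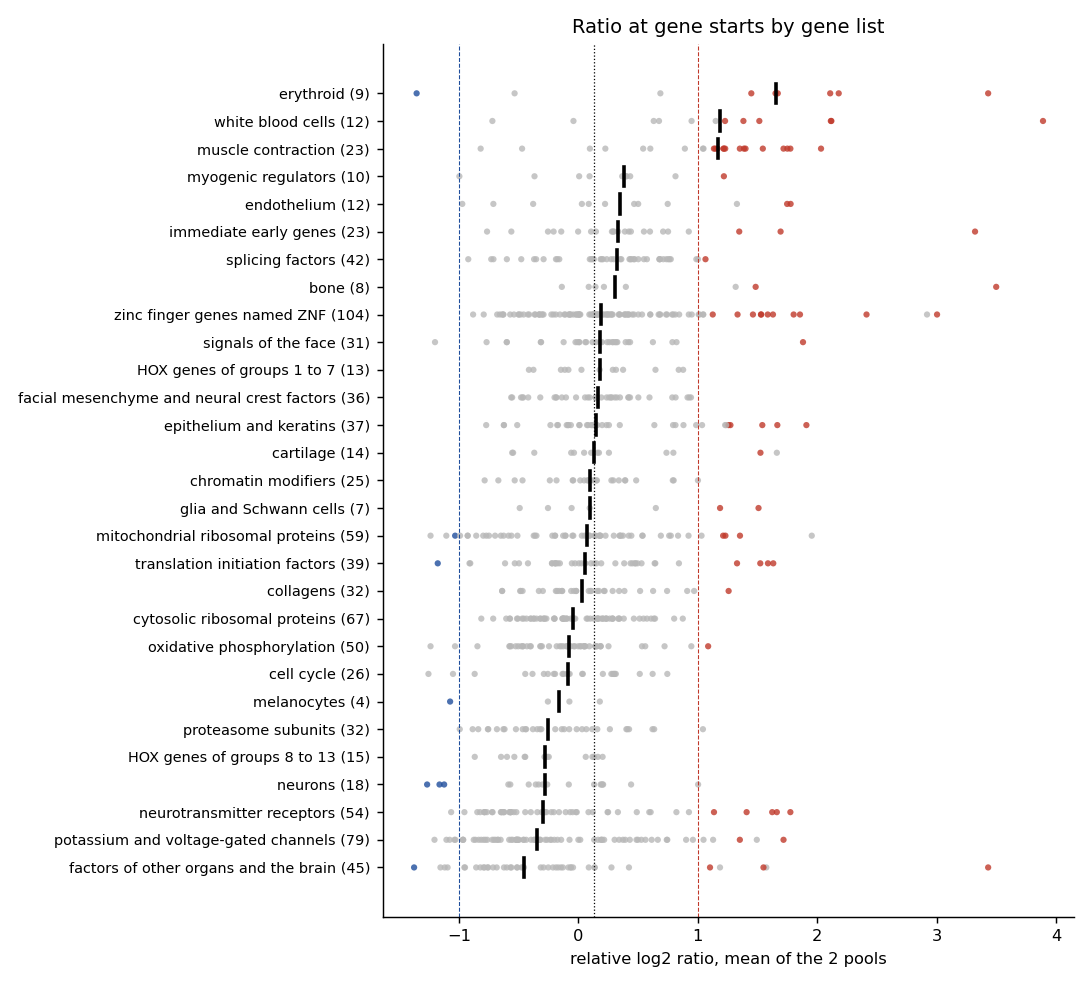
Relative log2 ratio (x axis, mean of the pools) of each gene with both marks in 29 lists, with the number of TSSs in brackets, members in red where high in both pools, blue where low in both and grey between, and black bars at the list median. The dotted line is the median of all 14448 TSSs (0.13) and dashed lines are the class limits, and the erythroid, white blood cell and muscle contraction bars lie beyond the upper limit.

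The lists not yet described lay between these. For bone, only 1 of 8 TSSs had all summits within 1 kb. Medians were 0.34 for endothelium (12 TSSs), 0.30 for bone (8), 0.19 for zinc finger genes (104), 0.13 for cartilage (14), 0.10 for chromatin modifiers (25), 0.09 for glia (7), 0.07 for mitochondrial ribosomal proteins (59), 0.06 for translation initiation factors (39), 0.03 for collagens (32), -0.09 for the cell cycle (26) and -0.17 for melanocytes (4). KIT, a receptor of pigment and germ cells, was the single low-ratio gene of the last, with H3K4me3 of 53.3 and 71.6 and H3K27ac of 16.9 and 17.1. CREBBP, an acetyltransferase that writes H3K27ac, was the highest of the chromatin modifiers at 1.00 ± 0.13, and KDM5A, which removes H3K4me3, the lowest at -0.79 ± 0.19.

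Transcript level was a readout the ratio did not use. Over all strengths of H3K4me3, both classes were transcribed less than the TSSs between them. The median was 2.3 TPM for high-ratio genes (2.28, 2.47 and 1.75 in the 3 libraries), 3.84 for low-ratio genes (4.25, 4.06 and 3.62) and 13.9 for those between (12.4, 16.4 and 12.3). After quantile normalisation the medians of the high and low class were 6.35 and 1.34, the opposite order. A level over 1 TPM in all 3 libraries was reached by 53.1%, 65.5% and 77.2%. With the TSSs in 10 equal groups by ratio, the median was 7.27 TPM in the lowest, 19.4 in the sixth and 1.67 in the highest, where the median H3K4me3 was 5.03 and 5.55-fold.

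At like H3K4me3, a higher ratio went with more transcript in each RNA library up to 40-fold. Between 5 and 10-fold, 441 high-ratio genes had a median of 2.25 TPM and 904 between the limits 0.443. Between 10 and 20-fold the medians were 5.08 over 123 and 0.957 over 1067. Between 20 and 40-fold they were 11.3 over 244 high-ratio genes, 6.45 over 2566 between and 0.726 over 86 low-ratio genes. The low class was below the others in all 3 libraries there, at 0.756, 0.926 and 0.553 TPM. Between 40 and 80-fold the high class and those between were alike, at 23.8 and 22.9, and the low class was at 8.96, while at 80-fold and over the low class reached 35.2 against 38.5. With all summits within 1 kb the medians from 20 to 40-fold were 11.1, 6.44 and 0.985. Genes are not replicates, so no test was run.

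**Figure D5:**
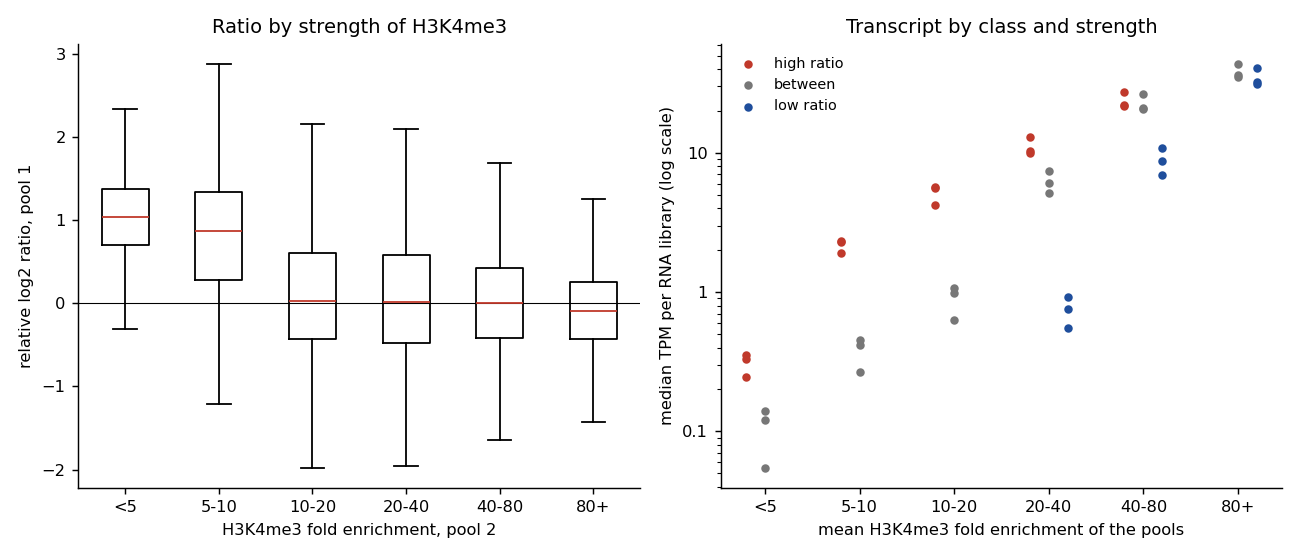
Left, relative log2 ratio in pool 1 (y axis) by H3K4me3 fold enrichment in pool 2 (x axis), with boxes at the quartiles, red median lines and whiskers to 1.5 times the box, outliers not drawn. Right, median TPM (y axis, log scale) in each of the 3 RNA libraries for high-ratio (red), between (grey) and low-ratio (blue) genes by mean H3K4me3, for groups of at least 20 genes. The red points lie above the grey up to 40-fold, and the blue ones lie below them from 20 to 80-fold.

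The classes differed in other features as well. H3K4me3 peaks had a median length in pool 1 of 1556.5 bp at high-ratio genes, 2603 bp between the limits and 3069 bp at low-ratio genes, whereas H3K27ac peaks had 2292, 2382 and 2269 bp. The H3K4me3 peak was shared with another TSS at 12.4%, 23.8% and 25.4%. Within 1 to 50 kb of the TSS there was a mean of 5.57 H3K27ac peaks without H3K4me3 in pool 1 around high-ratio genes, 4.23 between and 4.99 around low-ratio genes (5.26, 3.94 and 4.63 in pool 2). The share of genes with a symbol was 67.0%, 82.3% and 88.8%. Gene models were lifted from the Tasmanian devil, and how often an annotated start misses the one used in the dunnart was not tested.

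Of the 480 TSSs with H3K27ac alone, the strongest with a symbol were MTG1, TAS1R1, C1H16orf54, TRIB3 and GLTPD2. MTG1, a mitochondrial GTPase at 17.8 ± 3.88 TPM (SD, n = 3), had H3K27ac of 39.96 and 29.5 from a summit 2209 and 2178 bp away. TAS1R1, a taste receptor, had 4.62 and 28.7, from summits 137 and 3288 bp away. TRIB3, a pseudokinase of the stress response, was the one with summits near the start in both pools (52 and 114 bp), at 8.12 and 9.66-fold and 8.44 ± 4.8 TPM. Over the 480 the median H3K27ac was 3.99 and 4.13-fold, so most of these peaks were weak.

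Of the 95 TSSs with H3K4me3 alone, MRPL28, GFI1, NDST4 and the tRNA genes TRNAG-GCC-18 and TRNAL-CAG-3 were the strongest with a symbol. MRPL28, a mitochondrial ribosomal protein at 121 ± 21.2 TPM (SD, n = 3), had H3K4me3 of 51.9 and 85.1 with summits 2324 and 2379 bp from the annotated start. GFI1, a repressor of blood and sensory hair cell development, had 14.4 and 16.8, and NDST4, an enzyme of heparan sulfate, 13.3 and 14.0. In all of these the H3K4me3 summit was over 1 kb away. The median over the 95 was 5.1 and 5.04-fold.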

How the data were processed

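Chromatin immunoprecipitation with sequencing (ChIP-seq) for H3K4me3 and H3K27ac, 2 pools each with input of the same pool, and bulk RNA-seq in 3 libraries were analysed. Per the submitters' notes, ChIP reads were trimmed with cutadapt (1.9.1), aligned to the study's dunnart assembly with Bowtie2 (2.3.5.1), filtered with SAMtools (1.9) and Picard (2.23.1), and peaks were called per replicate with MACS2 (2.1.1). For each peak the deposited lists hold the fold enrichment against input (a ratio) with its p-value and q-value as −log10. They end at an unadjusted p near 0.01, so q under 0.05 was applied here. The deposited display score was not used. RNA was processed by the authors with Trimmomatic (0.39), HISAT2 (2.21) and featureCounts of Subread (2.0.1) into deposited counts per gene. Gene models are lifted over from the Tasmanian devil.

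Per TSS and library the highest fold enrichment of a peak reaching within 1 kb was taken, on the log2 scale with no pseudocount, and centred on the library's median over the 14448 TSSs with both marks in both pools. H3K27ac was compared with H3K4me3 by limma (3.58.1, R 4.3.3, trend in the prior, Benjamini-Hochberg over all 14448). TPM was computed from counts and summed exon length, in Python (3.11.15) with pandas (2.3.3) and numpy (2.4.6), and figures with matplotlib (3.10.9). For 11 genes on 2 broken lines the counts were not used. The fit was checked on simulated data. Both pools supply both marks by the labels, and the deviations of the pools correlated between marks with r = 0.337 over TSSs, so the fit with the pool as a block is printed beside the main one. Intervals of depth could not be given for peaks. The SE of a ratio and the p-values measure the spread between 2 pools, moderated by limma towards the spread over all TSSs.

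The members, the 29 gene lists and the tests were chosen with earlier results of these data known. Named genes are the 12 with a symbol of highest and lowest ratio among called genes of each class, the 5 strongest with a single mark, the extremes of each list, the 2 nearest each class limit on either side (1 of them is not reported here), and members of the muscle, mesenchyme, signal and epithelium lists. Alternatives were quantile normalisation, no centring, windows of 500 bp and 3 kb, q under 0.01, all deposited peaks, either mark with log2(fold enrichment + 1), shared peaks left out, no trend, the replicate block and leaving out libraries.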

Additional observations from a re-analysis of the deposited data

How the results depend on the processing

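The counts of called genes kept within 1.5 times of 2941 higher and 969 lower at windows of 500 bp and 3 kb, at q under 0.01, with all deposited peaks, with either mark, with shared peaks left out and with no trend. Quantile normalisation gave 1334 higher, and no centring 866 higher and 6744 lower. The replicate block raised the lower calls to 2266, and summits within 1 kb together with the replicate block gave 2214. Leaving out 1 library gave 43 to 2113 higher and 7 to 279 lower, where the lone library of a mark is assumed to vary like the other mark. High-ratio genes numbered 672 after quantile normalisation, 172 with no centring and 974 by summit, and low-ratio genes 484 and 2689 under the first 2 of these. Single pools gave 2064 to 2482 high-ratio and 489 to 632 low-ratio genes.

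The median TPM of high-ratio genes was 6.35 after quantile normalisation, 0.975 with no centring, 2.79 at 500 bp, 1.42 at 3 kb and 3.31 by summit, and that of low-ratio genes 1.34, 8.60, 5.65 by summit and 2.86 with shared peaks left out. The order of the classes turned after quantile normalisation. MRPL37 turned from 1.95 to -0.71 at 3 kb and POP5 from -1.99 to 0.079 at 500 bp. The cause of these moves was not tested. The peak lists carry no read totals, so depth was not weighed per peak. Settings by summit were chosen after seeing the data.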
